A study of Mus musculus with 24 samples.

Results

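The genes described here are 8 small leucine-rich proteoglycans, Dcn (decorin), Bgn (biglycan), Aspn (asporin), Lum (lumican), Fmod (fibromodulin), Prelp (prolargin), Omd (osteomodulin) and Ogn (osteoglycin), together with Vcan (versican). These 9 genes, of 22943 in the expression table, were taken by symbol. All 9 had values in each of 24 mouse uterus libraries, and 8 passed the filter on low values, with Omd below it. The libraries came from 21-day-old female C57bl/6 mice, an age before the onset of ovarian cycles. Knockout mice were PgrCre+ with floxed Ctcf alleles, so that Cre recombinase, made from the promoter of the progesterone receptor gene Pgr, deletes Ctcf in cells that use that promoter. Ctcf encodes a zinc finger protein that binds DNA and holds chromatin loops. The controls were Ctcf-flox littermates without Cre, and floxed Ctcf was thus common to every group, while the Cre allele and the loss of Ctcf cannot be told apart. Mice received 0.5 mg of progesterone in 0.05 ml of sesame oil under the skin, or the oil alone, and were studied after 6 hours. The groups were 8 floxed vehicle, 8 knockout vehicle, 4 floxed progesterone and 4 knockout progesterone libraries. Whether each library is a separate mouse is not stated in the labels, so p-values here measure only the spread between libraries, which may be technical. Floxed vehicle 1a and 1b share a number within their group and lie in different library batches, as do knockout vehicle 11a and 11b. The labels do not say whether such libraries come from the same mouse, and each was counted as a separate library. The study's title names the role of CTCF in uterine maturation under progesterone as its subject.

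Small leucine-rich proteoglycans are secreted proteins that bind collagen fibrils and set their thickness and spacing. Decorin and biglycan carry chondroitin or dermatan sulfate chains and also bind transforming growth factor beta, whereas lumican, fibromodulin and osteomodulin can carry keratan sulfate. Versican is a large chondroitin sulfate proteoglycan that binds hyaluronan together with link proteins and is cut by proteases of the ADAMTS family. In the uterus these molecules belong to the stromal and muscle matrix, which is remodelled under ovarian hormones and in pregnancy.

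Ctcf ranged from 9.04 to 13.1 RPKM (reads scaled to gene length and library size) in knockout libraries and from 23.0 to 30.6 RPKM in floxed ones, with log2 fold changes of -1.14 ± 0.06 (SE) after vehicle and -1.35 ± 0.09 after progesterone. The labels name 2 library batches. One batch, called mixed here, holds 4 libraries of each group, and the other, called vehicle-only, holds 4 floxed and 4 knockout vehicle libraries. Sequencing depth, estimated from the smallest steps between values, was 29900000 to 100600000 reads per library, with a median of 72700000 in the mixed and 49850000 in the vehicle-only batch. In 6 libraries a marker of oviduct (Ovgp1 above 100 RPKM) or of squamous epithelium (Krt5 above 10 RPKM) was high. They were knockout progesterone 8, knockout vehicle 5, 9 and 12, floxed progesterone 7 and floxed vehicle 3. Knockout vehicle 5 passed the Krt5 limit by a small margin, at 10.1 RPKM. The other vehicle-only libraries had Krt5 at 4.69 to 9.28 RPKM, so its place among the 6 is not firm. For members and named genes of related lists, calls that change without these 6 libraries are given with the adjusted p found then. Cell type markers, and genes flanking a member other than Hapln1, are given with all libraries only. In whole tissue, fewer cells of a type and less RNA per cell cannot be told apart.

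Most members, 7 of 9, lie close to another member in the mouse genome (GRCm38, GENCODE M21). Dcn (chr10:97479609-97518143, plus strand) and Lum (chr10:97565128-97572703, plus strand) are separated by 47.0 kb. Prelp (chr1:133910304-133921414, minus strand) and Fmod (chr1:134037254-134048277, plus strand) are separated by 115.8 kb. Aspn (chr13:49544443-49567565), Omd (chr13:49582462-49592822) and Ogn (chr13:49608046-49624501) follow each other on the plus strand with gaps of 14.9 and 15.2 kb. Bgn (chrX:73483602-73495933, plus strand) and Vcan (chr13:89655312-89742509, minus strand) stand alone. All 9 are protein-coding, and the values are sums over each gene without separation of isoforms. Cenpp, on the opposite strand, spans Aspn, Omd and Ogn and shares exon bases with Aspn, and the antisense gene Gm15851 shares exon bases with Prelp. The sources used here do not say whether reads were counted by strand, so reads of Aspn and Cenpp, and of Prelp and Gm15851, may not be separable.

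Promoter sequences are shown for Bgn, Fmod and Vcan, the 3 members that were lower in knockout than in floxed libraries after progesterone. Each is the 250 bases before the RefSeq start site (GRCm38.p6), printed 5′ to 3′ along the gene's strand. Capitals mark the letters CCCTC, a core of the CTCF motif, or its reverse GAGGG, and in Bgn also TGTTCT, the hexamer bound by progesterone and glucocorticoid receptors, which was searched with its reverse AGAACA.
Bgn (chrX:73483351-73483600, plus strand): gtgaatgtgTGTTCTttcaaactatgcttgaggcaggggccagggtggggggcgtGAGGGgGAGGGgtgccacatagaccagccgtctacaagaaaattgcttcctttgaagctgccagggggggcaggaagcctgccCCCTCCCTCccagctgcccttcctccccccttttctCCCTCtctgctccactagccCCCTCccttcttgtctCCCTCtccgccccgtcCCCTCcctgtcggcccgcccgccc
Fmod (chr1:134037004-134037253, plus strand): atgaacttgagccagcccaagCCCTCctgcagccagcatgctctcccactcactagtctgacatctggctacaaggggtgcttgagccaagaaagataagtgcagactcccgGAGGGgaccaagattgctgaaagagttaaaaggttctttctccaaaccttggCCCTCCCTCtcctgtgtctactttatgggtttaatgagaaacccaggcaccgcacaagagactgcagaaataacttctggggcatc
Vcan (chr13:89742513-89742762, minus strand): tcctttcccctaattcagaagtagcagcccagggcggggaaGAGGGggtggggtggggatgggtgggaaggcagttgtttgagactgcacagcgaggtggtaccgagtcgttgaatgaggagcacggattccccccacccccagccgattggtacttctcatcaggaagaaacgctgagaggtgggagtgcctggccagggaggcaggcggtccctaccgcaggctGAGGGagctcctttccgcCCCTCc

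CCCTC or GAGGG occurred 8 times in the Bgn promoter, 4 times in that of Fmod and 3 times in that of Vcan, with overlapping matches counted each. The Prelp promoter, whose gene did not pass the test in any comparison, held 8 matches as well, and those of Aspn, Omd and Ogn held 0. Of 32851 RefSeq promoters of this length, 60.5% held at least 1 match and 2.61% held 5 or more. TGTTCT or AGAACA occurred once in the Bgn promoter and not in the other 6 matched, against 16.1% of all promoters. RefSeq entries were matched for 7 of the 9 members, without Lum and Dcn. These matches describe letters and say nothing of binding.

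In floxed vehicle uteri the members spanned a wide range of levels. Mean levels, in batch-corrected RPKM with SD over 8 libraries, were 261 ± 41.3 for Dcn, 167 ± 18.8 for Bgn and 81.1 ± 10.6 for Lum. Dcn ranked 67 from the top of 14284 tested genes and Bgn 127. Prelp (35.5 ± 6.75), Ogn (31.4 ± 6.27), Fmod (11.98 ± 1.22), Vcan (11.8 ± 3.40) and Aspn (7.02 ± 1.58) followed. Omd was at 0.420 ± 0.157 RPKM and between 0.155 and 1.01 RPKM over all libraries, too low for the test. The ranges over libraries were apart for Dcn and Bgn, Bgn and Lum, Lum and Prelp, Ogn and Fmod, and Aspn and Omd. They overlapped for Prelp and Ogn, for Fmod and Vcan, and for Vcan and Aspn, and those neighbours have no firm order. After progesterone the mean of Lum was below those of Prelp and Ogn in both genotypes, but the ranges overlapped, and in floxed uteri 3 of 4 libraries had Lum above both, with floxed progesterone 1 the exception.

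**Figure D1:**
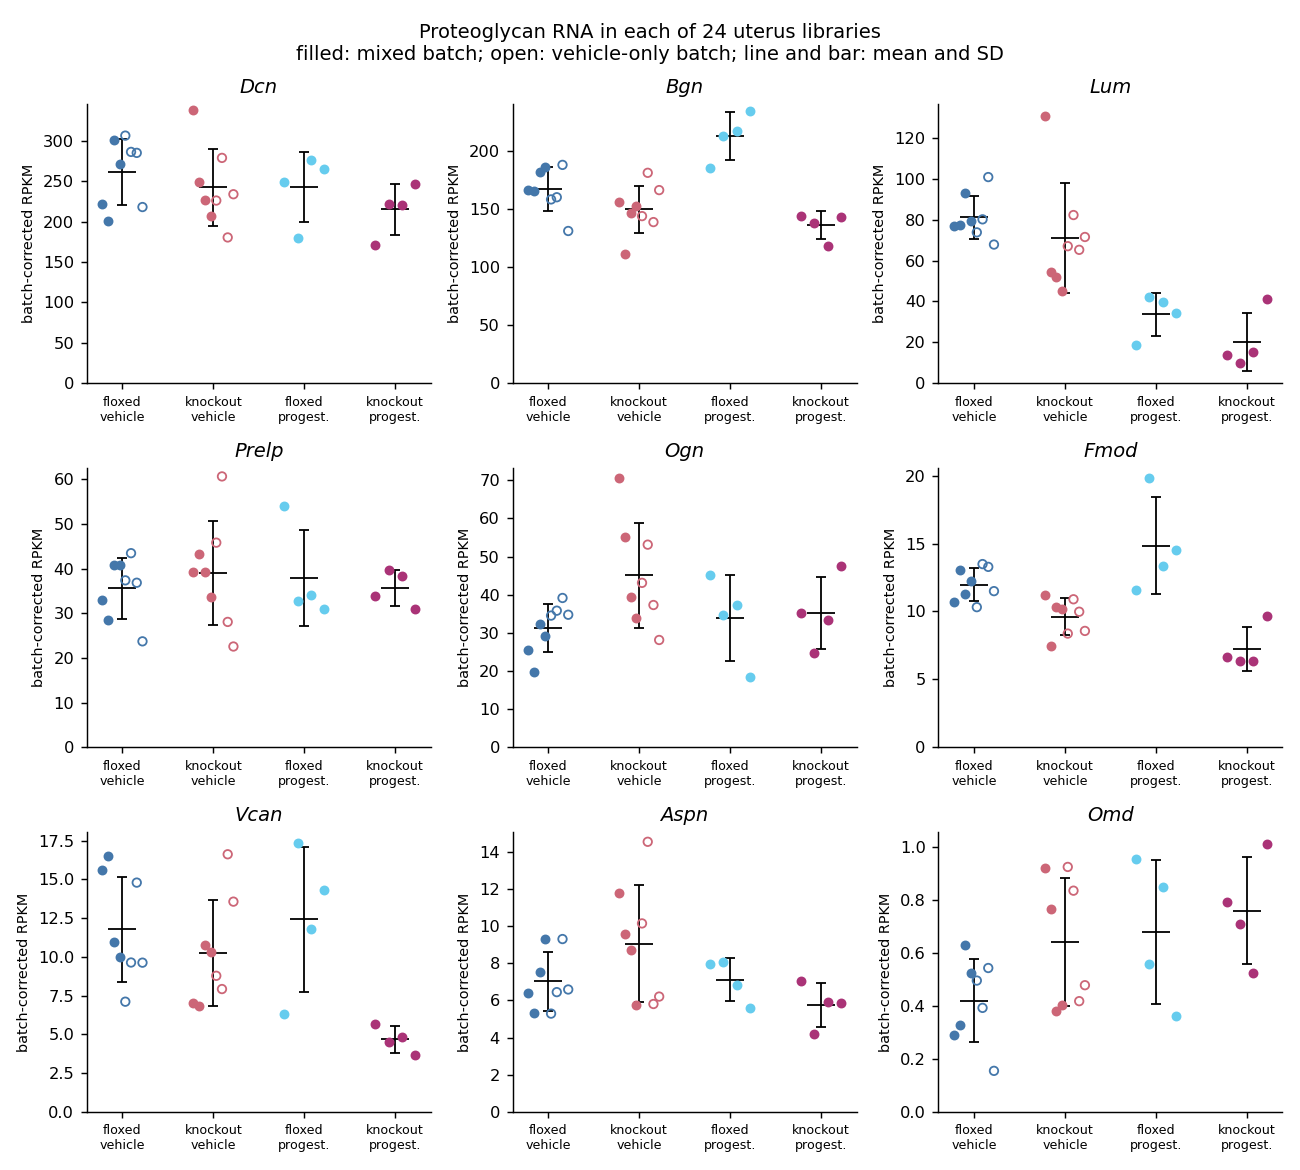
Batch-corrected RPKM (vertical axes, from 0) of the 9 members in each of 24 libraries, by group, with the mean and SD. Filled points are the mixed batch and open points the vehicle-only batch. Lum lies between 10.1 and 42.2 RPKM in all progesterone libraries and between 45.3 and 130.6 RPKM in all vehicle libraries.

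Progesterone lowered Lum in floxed uteri and raised Bgn, while the other 6 tested members did not pass the test. Of 8 tested members 1 was higher and 1 lower. Of all tested genes 23.0% were called at an adjusted p below 0.05 (limma, Benjamini-Hochberg over 14284 genes). Those higher made up 7.84% of all tested genes and those lower 15.1%. The members' median log2 fold change was 0.04, against -0.06 over all tested genes. Lum encodes lumican, which binds collagen and keeps fibrils thin and evenly spaced. Its levels were 67.9, 78.3 and 101 RPKM (lowest, median and highest) in 8 floxed vehicle libraries and 18.6, 42.2, 39.6 and 34.5 RPKM in the 4 floxed progesterone libraries. All progesterone libraries were below all vehicle libraries. The log2 fold change of Lum was -1.28 ± 0.31 (SE, adjusted p = 0.00519), which is 2.43-fold lower, and -1.32 (adjusted p = 0.0197) within the mixed batch. Bgn encodes biglycan, which binds collagen and transforming growth factor beta. Its levels were 131, 166 and 188 RPKM in floxed vehicle libraries and 185, 213, 217 and 234 RPKM in floxed progesterone libraries. The lowest progesterone library fell just inside the vehicle range, and the other 3 lay above it. Bgn rose by 0.35 ± 0.12 on the log2 scale (adjusted p = 0.0370). This call was lost within the mixed batch (0.28, adjusted p = 0.0866), without the 6 libraries with oviduct or squamous markers (0.36, adjusted p = 0.0988) and on leaving out floxed progesterone 2, 7 or 9 or floxed vehicle 1b or 2 (adjusted p from 0.0583 to 0.124). The groups did not overlap for 1 of 8 members, Lum, and for 14.0% of all tested genes.

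In knockout uteri progesterone lowered Lum and Vcan. Of 8 tested members 2 were lower and 0 higher, where 8.67% of tested genes were called and 4.66% were lower. At an unadjusted p below 0.05 the members were 4 lower and 0 higher. No share of all tested genes is given at that unadjusted level. The median log2 fold change of the members was -0.34, against -0.02 over all tested genes. Lum was at 45.3, 66.2 and 131 RPKM in knockout vehicle libraries and at 13.9, 10.1, 15.2 and 41.4 RPKM in knockout progesterone libraries. Every progesterone library lay below every vehicle library, and knockout progesterone 8 stood apart from the other 3. Lum fell by 1.91 on the log2 scale (SE 0.31, adjusted p = 0.000512), which is 3.75-fold, and by 1.86 (adjusted p = 0.00685) within the mixed batch. Knockout progesterone 8 and knockout vehicle 9, the highest Lum libraries of their groups, were also the pair with the highest Krt5 of those groups, at 14.8 and 50.5 RPKM. Without the 6 marker libraries the fall of Lum was 2.12 (adjusted p = 0.000271). Vcan was at 6.80, 9.56 and 16.6 RPKM in knockout vehicle libraries and at 5.68, 4.51, 4.86 and 3.63 RPKM after progesterone. The 2 groups did not overlap. The log2 fold change of Vcan was -1.01 ± 0.27 (adjusted p = 0.0238), or 2.01-fold lower. This call was lost within the mixed batch (-0.82, adjusted p = 0.0585), without the 6 marker libraries (-1.07, adjusted p = 0.156) and without knockout progesterone 5 (-0.998, adjusted p = 0.0579) or 8 (-0.91, adjusted p = 0.0797). Fmod (-0.40 ± 0.14, adjusted p = 0.0852) and Aspn (-0.58 ± 0.23, adjusted p = 0.124) missed the threshold, and Fmod passed it without knockout progesterone 8 (-0.54, adjusted p = 0.0238) or knockout vehicle 10 (-0.48, adjusted p = 0.0381). Groups without overlap were seen for 2 of 8 members and 7.74% of tested genes.

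After vehicle, Fmod alone was called between the genotypes, and by a small margin. Of 8 tested members 1 was lower and 0 higher in knockout libraries, against 24.6% of tested genes called and 11.5% lower. For genes called lower, the members' share is near that background. At an unadjusted p below 0.05 the members were 1 lower and 1 higher. No share of all tested genes is given at that unadjusted level. The members' median log2 fold change was -0.14, and that of all tested genes -0.01. Fmod encodes fibromodulin, which binds fibrillar collagen and takes part in fibril assembly. Its levels were 10.3, 11.9 and 13.5 RPKM in floxed vehicle libraries and 7.46, 10.1 and 11.2 RPKM in knockout vehicle libraries, and the groups overlapped. The log2 fold change was -0.31 ± 0.11 (adjusted p = 0.0391). Within the mixed batch it was -0.27 (adjusted p = 0.295) and within the vehicle-only batch -0.34 (adjusted p = 0.146), neither of which passed. The call was also lost on leaving out any of 7 libraries, floxed vehicle 2, 4, 7 or 10 or knockout vehicle 4, 10 or 13, with adjusted p up to 0.0902. Ogn, which encodes osteoglycin, was at 19.8, 33.4 and 39.2 RPKM in floxed and 28.2, 41.3 and 70.6 RPKM in knockout vehicle libraries. Its log2 fold change of 0.49 ± 0.19 missed the threshold (adjusted p = 0.0712). Ogn was higher in all 4 knockout than in all 4 floxed vehicle libraries of the mixed batch, at 0.85 (adjusted p = 0.0447). In the vehicle-only batch the value was 0.13 (adjusted p = 0.789), and the 4 knockout libraries (28.2 to 53.1 RPKM) overlapped the 4 floxed ones (34.5 to 39.2 RPKM). With both batches Ogn passed without knockout vehicle 13 (0.59, adjusted p = 0.0266) or floxed progesterone 9 (0.49, adjusted p = 0.0412). None of the 8 members had groups without overlap, against 8.43% of tested genes.

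After progesterone, Bgn, Fmod and Vcan were lower in knockout than in floxed uteri. Of 8 tested members 3 were lower and 0 higher, where 19.4% of tested genes were called and 7.06% were lower. At an unadjusted p below 0.05 the members were 4 lower and 0 higher. No share of all tested genes is given at that unadjusted level. The members' median log2 fold change was -0.47, against 0.03 over all tested genes. Bgn was at 185, 213, 217 and 234 RPKM in floxed and at 144, 138, 118 and 143 RPKM in knockout progesterone libraries, 1.56-fold lower (log2 fold change -0.64 ± 0.13, adjusted p = 0.000947). Fmod was at 11.6, 19.8, 13.3 and 14.5 RPKM in floxed and at 6.64, 6.34, 6.35 and 9.65 RPKM in knockout libraries, 1.97-fold lower (-0.98 ± 0.15, adjusted p = 6.69e-05). For Vcan the floxed libraries had 6.31, 17.4, 11.8 and 14.3 RPKM and the knockout libraries 5.68, 4.51, 4.86 and 3.63 RPKM, a 2.38-fold lower level (-1.25 ± 0.29, adjusted p = 0.00406). For each of these 3 members all knockout progesterone libraries lay below all floxed ones, a separation found for 21.5% of all tested genes. The floxed library nearest the knockout range was floxed progesterone 1 for all 3 members. The 3 calls held on leaving out any 1 of the 24 libraries, with Bgn between -0.71 and -0.58, Fmod between -1.12 and -0.83 and Vcan between -1.53 and -1.07. Without the 6 marker libraries the Vcan value was -1.15 and missed the threshold (adjusted p = 0.0521), while Bgn (-0.66, adjusted p = 0.00799) and Fmod (-1.16, adjusted p = 0.000164) passed.

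Lum was also lower in 3 of 4 knockout progesterone libraries than in every floxed one, but knockout progesterone 8 lay among the floxed values. The log2 fold change was -0.88 ± 0.34 (adjusted p = 0.0695). It was -1.29 (adjusted p = 0.00274) without knockout progesterone 8, -1.14 (adjusted p = 0.0211) without floxed progesterone 1, -0.88 (adjusted p = 0.0427) without knockout vehicle 9 and -1.19 (adjusted p = 0.00223) without the 6 marker libraries.

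**Figure D2:**
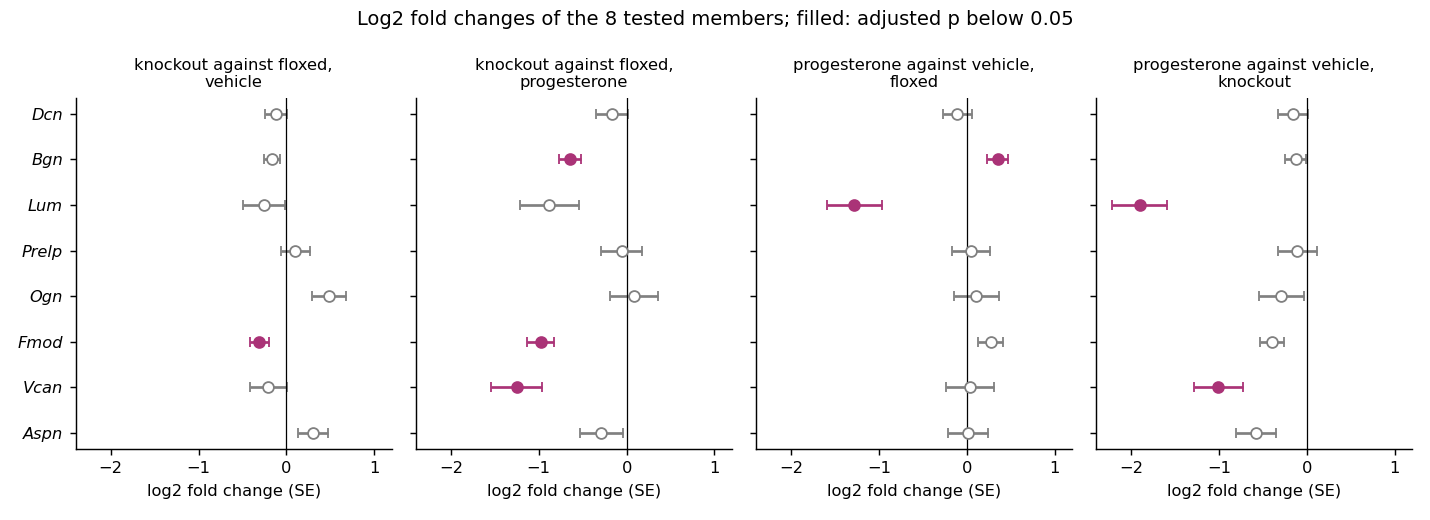
Log2 fold changes (horizontal axes, with SE) of the 8 tested members in 4 comparisons, from limma on log2(RPKM + 0.5). Filled points have an adjusted p below 0.05 over all tested genes. Bgn, Fmod and Vcan are filled between genotypes after progesterone, at -0.64, -0.98 and -1.25, and Lum is filled in both responses to progesterone, at -1.28 and -1.91.

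The response to progesterone was then compared between the genotypes. For this difference limma called 0 of 8 members, against 2.49% of tested genes, at an adjusted p below 0.05. The share of all tested genes at an unadjusted p below 0.05 is not given here. At that unadjusted level 3 of 8 members passed, all lower in knockout. These were Fmod (-0.67 ± 0.19, adjusted p = 0.0544), Bgn (-0.48 ± 0.16, adjusted p = 0.119) and Vcan (-1.05 ± 0.36, adjusted p = 0.142). In these genes the floxed response was 0.27, 0.35 and 0.04 on the log2 scale and the knockout response -0.40, -0.13 and -1.01. The difference for Lum was -0.63 ± 0.41 (adjusted p = 0.541), so that the larger fall of Lum in knockout uteri was not shown to differ from that in floxed uteri. The members' estimates lay from -1.05 to -0.05, with a median of -0.54 against 0.03 over all tested genes. On leaving out 1 library the estimates of Dcn and Prelp reached 0.05 and 0.02. All members rest on the same libraries, so their signs are not separate evidence. The Fmod difference passed the test on leaving out knockout progesterone 8, knockout vehicle 4 or 10, floxed progesterone 1 or floxed vehicle 12, with adjusted p from 0.0136 to 0.0477. Vcan passed without floxed progesterone 1 (-1.33, adjusted p = 0.0342) and Bgn without knockout vehicle 10 (-0.54, adjusted p = 0.0348).

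Dcn and Prelp were among the members without a call in any comparison. Dcn, the most abundant, was at 201, 278 and 307 RPKM in floxed vehicle and 181, 231 and 338 RPKM in knockout vehicle libraries. After progesterone it was at 249, 180, 277 and 265 RPKM in floxed and 171, 222, 220 and 247 RPKM in knockout libraries. Its log2 fold changes lay between -0.17 and -0.11 in all 4 comparisons, and every pair of groups overlapped. Prelp encodes prolargin, which links collagen to basement membrane heparan sulfate. Its 4 fold changes lay between -0.11 and 0.10, and 1 floxed progesterone library reached 54.0 RPKM where the other 3 were at 30.9 to 34.2 RPKM. Aspn, which encodes a decorin relative without a glycosaminoglycan attachment site, ranged from 4.18 to 7.06 RPKM in knockout progesterone libraries and from 5.75 to 14.6 RPKM in knockout vehicle libraries. Omd, tested with the filter removed, was not called in any comparison, with log2 fold changes from -0.19 to 0.35 on this scale, which understates changes at such levels. A p above the threshold does not show that values were equal.

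Members were also set against each other within libraries. Log2 ratios between 5 pairs of neighbouring members and between Vcan and Dcn, which lie on different chromosomes, were compared over libraries in 4 contrasts with two-sided exact permutation tests, 24 in all. The Lum to Dcn ratio fell by 1.29 after progesterone in floxed libraries and by 1.63 in knockout libraries of the mixed batch. Both had an exact p of 0.0286, the smallest that 4 against 4 libraries allow, and an adjusted p of 0.172 over the 24 tests. The Aspn to Omd ratio (-0.76) and the Ogn to Omd ratio (-0.66) fell after progesterone in knockout libraries with the same exact p and adjusted p. None of the 24 ratio tests passed an adjusted p of 0.05. The Fmod to Prelp ratio was 0.92 lower in knockout than in floxed progesterone libraries (exact p = 0.0571, adjusted p = 0.228).

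The nearest tested genes around the members differed in which comparison they passed. Around Prelp and Fmod, the genes Optc, Atp2b4, Btg2 and Adora1 were not called in any of the 5 contrasts, and their values between genotypes after progesterone lay between -0.28 and 0.21, where Fmod was at -0.98. Around Bgn, the genes Haus7, Zfp275, Pnck and Slc6a8 lay between -0.37 and 0.03 in that comparison, without a call, and Pnck was lower in knockout libraries after vehicle (-0.49 ± 0.12, adjusted p = 0.00362). Pnck also fell with progesterone in floxed libraries (-0.45 ± 0.16, adjusted p = 0.0387). Beside Vcan lies Hapln1, 43.7 kb away, which encodes a link protein of versican and hyaluronan. Hapln1 was lower in knockout libraries after vehicle (-1.29 ± 0.28, adjusted p = 0.00141), as was Edil3 on its far side (-1.11 ± 0.16, adjusted p = 1.86e-05). The Hapln1 value was -0.52 (adjusted p = 0.173) within the vehicle-only batch. After progesterone Hapln1 was at -0.97 ± 0.40 (adjusted p = 0.0900) and Edil3 at -0.65 ± 0.23 (adjusted p = 0.0507), while Xrcc4 and Tmem167 on the other side of Vcan were at 0.24 and -0.09. Hapln1 lay between -0.220 and 0.746 RPKM in knockout progesterone libraries, near the bottom of the batch-corrected scale, so the size of its change there is uncertain. In the floxed response, with all libraries, Hapln1 (-1.07 ± 0.37, adjusted p = 0.0406) and Edil3 (-0.71 ± 0.22, adjusted p = 0.0205) fell. Around Aspn, Omd and Ogn, the genes Ecm2, Ippk, Nol8 and Iars were not called between genotypes. Ippk rose with progesterone in floxed (0.31 ± 0.10, adjusted p = 0.0257) and in knockout libraries (0.59 ± 0.10, adjusted p = 0.000512), and Nol8 rose in floxed libraries (0.49 ± 0.18, adjusted p = 0.0498). Cenpp, which overlaps Aspn, was not called in any contrast. No tested gene outside the set lay within 500 kb of Dcn and Lum.

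**Figure D3:**
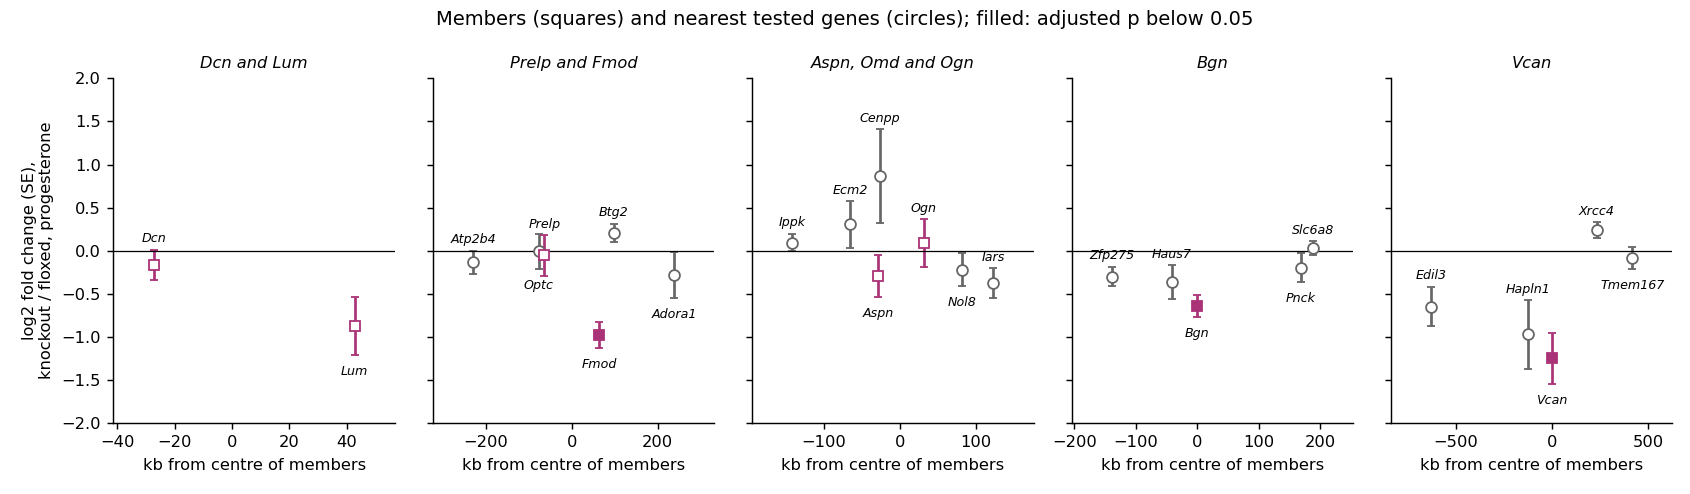
Log2 fold change (vertical axis, with SE) between knockout and floxed libraries after progesterone for the members (squares) and the nearest tested genes (circles), against distance in kb from the centre of the members. Filled symbols have an adjusted p below 0.05. Fmod, Bgn and Vcan are filled, and Hapln1 lies at -0.97 and Edil3 at -0.65 beside Vcan. Hapln1 levels were near the bottom of the batch-corrected scale in knockout progesterone libraries.

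Likeness between genes was described by Pearson's r of log2(RPKM + 0.5) over 24 libraries with batch means taken off, so that shared treatment and genotype enter each value. Among the members the highest were Bgn with Fmod (0.778), Ogn with Aspn (0.683) and Fmod with Vcan (0.660), and Ogn with Vcan was the lowest at -0.459. Outside the set, Lum was most like Col1a2 (0.872), Lgals7 (0.871) and Col1a1 (0.857), of which the first and last encode the chains of type I collagen. Bgn was most like Itga8 (0.832), Fmod most like Dhrs4 (0.877), Vcan most like Nipa1 (0.909), Prelp most like Abi3bp (0.903), Ogn most like Kcnmb1 (0.860), Aspn most like Map3k7cl (0.847) and Dcn most like Tspo (0.769). All these values rest on the same libraries.

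Enzymes that cut versican or process procollagen include 4 ADAMTS genes whose response to progesterone differed between the genotypes. Of 15 tested genes of that list, 4 rose and 2 fell with progesterone in floxed libraries, and 1 rose and 2 fell in knockout libraries. Of all tested genes 23.0% were called in the floxed and 8.67% in the knockout response. Adamts1, Adamts9 and Adamts15 encode proteases that cut versican, and Adamts14 encodes a procollagen N-proteinase. Adamts15 was at 4.94 to 10.1 RPKM in floxed vehicle libraries and at 29.3, 19.1, 23.6 and 25.9 RPKM in floxed progesterone libraries, a log2 fold change of 1.93 ± 0.18 (adjusted p = 9.19e-08). In knockout libraries it was at 5.14 to 8.94 RPKM after vehicle and at 9.57, 12.6, 7.87 and 10.1 RPKM after progesterone (0.42 ± 0.18, adjusted p = 0.160). Adamts9 rose by 1.27 ± 0.13 in floxed libraries, Adamts14 by 0.90 ± 0.16 and Adamts1 by 0.80 ± 0.11, with adjusted p from 2.53e-07 to 0.000223. All 4 floxed progesterone libraries lay above all floxed vehicle libraries and above all knockout progesterone libraries for each of these 4 genes. Groups did not overlap for 14.0% of all tested genes in the floxed response and for 21.5% between genotypes after progesterone. The 4 genes were named by smallest adjusted p, so their separation is not separate evidence. The difference in response was -1.50 ± 0.24 for Adamts15, -1.17 ± 0.20 for Adamts14, -0.80 ± 0.17 for Adamts9 and -0.77 ± 0.15 for Adamts1, with adjusted p from 0.000637 to 0.00978. These were 4 of the 15 tested genes of the list, against 2.49% of all tested genes. The list was chosen with earlier results of these data known, so this comparison is not a test of the list. Without the 6 marker libraries the difference missed the threshold for Adamts1 (-0.71, adjusted p = 0.0769) and Adamts9 (-0.73, adjusted p = 0.130), and within the mixed batch for Adamts9 (-0.64, adjusted p = 0.0907). Over the list the median difference in response was -0.16, against 0.03 over all tested genes. Between genotypes, 6 genes of the list were higher and 2 lower in knockout libraries after vehicle, and 4 were higher and 4 lower after progesterone. The shares called over all tested genes were 24.6% after vehicle and 19.4% after progesterone.

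**Figure D4:**
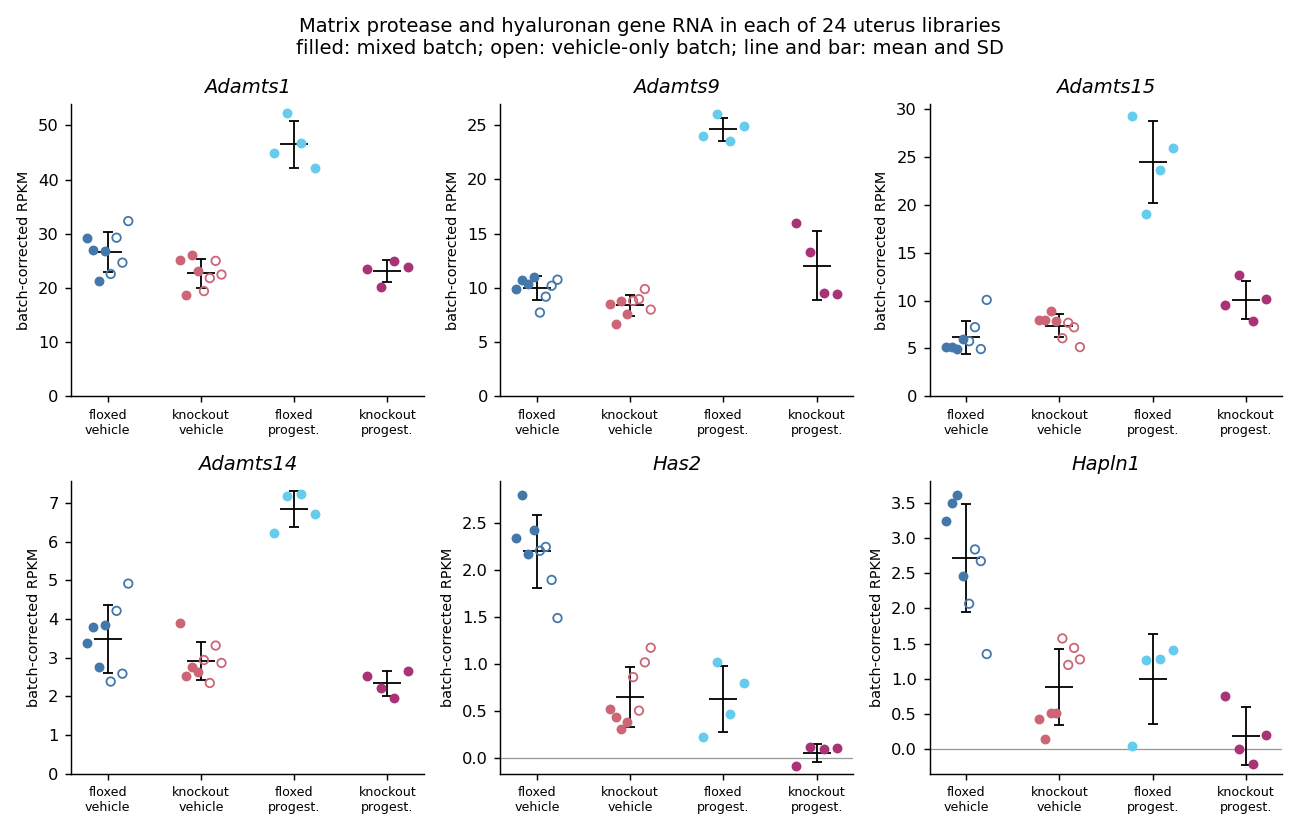
Batch-corrected RPKM (vertical axes) of 4 ADAMTS proteases, the hyaluronan synthase Has2 and the link protein Hapln1 in each of 24 libraries, with the mean and SD. Filled points are the mixed batch and open points the vehicle-only batch, and the grey line marks 0 where batch correction left values below it. Adamts15 reaches 19.1 to 29.3 RPKM in floxed progesterone libraries and stays at or below 12.6 RPKM in all others.

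Hyaluronan, to which versican binds, is made by hyaluronan synthases. Has2, which encodes one of them, was at 1.49 to 2.80 RPKM in floxed vehicle and 0.307 to 1.17 RPKM in knockout vehicle libraries (-1.26 ± 0.16, adjusted p = 2.61e-06). These groups did not overlap, as for 8.43% of all tested genes. In floxed progesterone libraries Has2 was at 0.219 to 1.02 RPKM (-1.22 ± 0.21, adjusted p = 0.000222). These lay below all floxed vehicle libraries, and 14.0% of all tested genes did not overlap in that comparison. In knockout progesterone libraries Has2 lay between -0.0853 and 0.114 RPKM, near the bottom of the batch-corrected scale, and no fold is given there. Of 14 tested genes of hyaluronan synthesis, binding and breakdown, 2 were higher and 2 lower in knockout libraries after vehicle and 1 higher and 3 lower after progesterone, where 24.6% and 19.4% of all tested genes were called. With progesterone 4 rose and 2 fell in floxed libraries, and 1 rose and 2 fell in knockout libraries, where 23.0% and 8.67% of all tested genes were called. Of the link proteins and other hyaluronan-binding proteoglycans 2 of 7 were tested, Hapln1 and Hapln3. Hapln3 was higher in knockout libraries after progesterone (1.17 ± 0.30, adjusted p = 0.00762), a call lost without the 6 marker libraries (adjusted p = 0.0565).

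The other small leucine-rich proteoglycans were mostly low, with 5 of 10 tested. Tsku (tsukushi) rose with progesterone in both genotypes, by 0.78 ± 0.10 in floxed (adjusted p = 6.11e-06) and 0.47 ± 0.10 in knockout libraries (adjusted p = 0.00375). Its groups did not overlap in either response, as for 14.0% of all tested genes in floxed and 7.74% in knockout libraries. The knockout value was 0.44 (adjusted p = 0.0798) without the 6 marker libraries. After vehicle 1 of the 5 was higher and 1 lower in knockout libraries. Among 16 tested core proteins of other proteoglycans, 6 were higher and 5 lower in knockout libraries after vehicle, and 5 were higher and 3 lower after progesterone. Over all tested genes 24.6% were called between genotypes after vehicle and 19.4% after progesterone. Tgfbr3 (betaglycan), a coreceptor of transforming growth factor beta, rose by 1.09 ± 0.14 with progesterone in floxed libraries and differed in response by -0.82 ± 0.18 (adjusted p = 0.0152), which was lost without the 6 marker libraries (-0.70, adjusted p = 0.144).

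Enzymes that build chondroitin or dermatan sulfate chains were counted in the same way. Of 28 tested, 6 were higher and 3 lower in knockout libraries after vehicle, 5 higher and 7 lower after progesterone, 5 higher and 5 lower with progesterone in floxed libraries and 0 higher and 4 lower in knockout libraries. Over all tested genes the shares called in these comparisons were 24.6%, 19.4%, 23.0% and 8.67%. Chst7, a chondroitin 6-O-sulfotransferase, was at 1.78 to 2.39 RPKM in floxed vehicle and 4.40 to 5.49 RPKM in knockout vehicle libraries (1.06 ± 0.07, adjusted p = 2.41e-10). After progesterone it was at 0.922 to 1.31 RPKM in floxed and 4.47 to 5.35 RPKM in knockout libraries (1.77 ± 0.10, adjusted p = 4.87e-11), and its response differed between genotypes by 0.71 ± 0.12 (adjusted p = 0.00151). Of 7 tested genes for keratan sulfate chains, B4galt1 rose with progesterone in floxed libraries (0.57 ± 0.06, adjusted p = 5.62e-07), and its response differed between genotypes by -0.40 ± 0.08 (adjusted p = 0.00630), the latter lost without the 6 marker libraries (-0.33, adjusted p = 0.140).

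Collagens and elastic fibre genes, which the members bind or accompany, were counted next. Of 30 tested, 13 were higher and 1 lower in knockout libraries after vehicle (24.6% of all tested genes were called), with a median of 0.26. Between genotypes after progesterone 4 were higher and 3 lower (19.4% of all tested genes were called). With progesterone 3 rose and 6 fell in floxed libraries (23.0% of all tested genes were called). In knockout libraries 0 rose and 11 fell, where 4.66% of all tested genes were lower, with a median of -0.53 over the list. Fbln2 (fibulin-2), which binds the versican lectin domain, was at 9.99 to 22.5 RPKM in floxed vehicle and 31.9 to 49.0 RPKM in knockout vehicle libraries (1.34 ± 0.12, adjusted p = 1.26e-08), and was higher after progesterone too (1.35 ± 0.17). Col12a1, a collagen of the fibril surface, rose by 1.23 ± 0.19 with progesterone in floxed libraries and was lower in knockout libraries after progesterone (-1.05 ± 0.20, adjusted p = 0.000631). Its difference in response of -1.09 ± 0.25 (adjusted p = 0.0160) was lost within the mixed batch (adjusted p = 0.0689), without floxed progesterone 2 (adjusted p = 0.0501) and without the 6 marker libraries (-0.82, adjusted p = 0.218). Of 19 tested receptors and growth factors bound by the members, 4 were higher and 4 lower in knockout libraries after vehicle, and 4 higher and 3 lower after progesterone. These comparisons called 24.6% and 19.4% of all tested genes. With progesterone 0 rose and 7 fell in floxed libraries (15.1% of all tested genes fell), among them Tgfb3 (-0.70 ± 0.07), which also fell in knockout libraries (-0.61 ± 0.07).

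Markers of the cell types that a uterus holds were read beside these results. Over all tested genes the shares called between genotypes were 24.6% after vehicle and 19.4% after progesterone. They were 23.0% in the floxed and 8.67% in the knockout response. These shares are at the adjusted threshold, and none is given for an unadjusted p. Summed stromal markers (10 genes) lay at 675 to 736 RPKM in floxed vehicle, 613 to 760 in knockout vehicle, 717 to 802 in floxed progesterone and 653 to 738 in knockout progesterone libraries. Of the 10, 1 was higher and 4 lower in knockout libraries after vehicle, and 0 higher and 2 lower after progesterone, Pdgfra (-0.88 ± 0.15) and Hoxa11 (-0.64 ± 0.13). With progesterone 2 stromal markers rose and 1 fell in floxed libraries, and 3 rose and 0 fell in knockout libraries. Summed smooth muscle markers (8 genes) lay at 1512 to 1838 RPKM in floxed vehicle and 1274 to 2271 in knockout vehicle libraries, and at 1479 to 1875 and 1272 to 2130 RPKM after progesterone. None of these 8 was called by limma in any contrast, and 1 had an unadjusted p below 0.05 in the knockout response. All 7 tested leukocyte markers were higher in knockout libraries after vehicle and after progesterone, and their sums were 70.5 to 106 RPKM in floxed vehicle, 137 to 221 in knockout vehicle, 71.7 to 116 in floxed progesterone and 112 to 249 in knockout progesterone libraries. Epithelial markers were 1 higher and 5 lower of 8 in knockout libraries after vehicle and 2 higher after progesterone, and endothelial markers 3 and 1 higher of 8. With progesterone 1 epithelial marker rose and 1 fell in floxed libraries, and 3 rose and 0 fell in knockout libraries. Summed epithelial markers (8 genes) lay at 279 to 416 RPKM in knockout vehicle and 424 to 591 in knockout progesterone libraries. The sums were 383 to 600 RPKM in floxed vehicle and 369 to 582 in floxed progesterone libraries. Of 8 markers of tendon, cartilage and bone, tissues rich in these proteoglycans, 2 were tested, Scx and Sp7, and the other 6, with Tnmd, Acan and Col2a1 among them, stayed at or below 1.07 RPKM in every library. Scx and Sp7 were higher in knockout libraries after progesterone (1.07 ± 0.20 and 0.82 ± 0.17) and fell with progesterone in floxed libraries (-0.72 ± 0.19 and -0.87 ± 0.16), and Scx was higher in knockout libraries after vehicle (0.41 ± 0.14). Of 5 mesothelial markers 0 rose and 2 fell with progesterone in floxed libraries, Msln (-1.98 ± 0.56) and Upk3b (-0.96 ± 0.29), and 0 were called in knockout libraries, with 4 of 5 at an unadjusted p below 0.05 and medians of -0.73 and -0.72. Between genotypes 2 mesothelial markers were higher in knockout libraries after vehicle, and 1 was higher and 1 lower after progesterone. Of 5 tested skeletal muscle markers 3 were lower in knockout libraries after vehicle and 1 after progesterone. Of 5 markers of nerve and glia 1, Uchl1, was higher in knockout libraries after vehicle, after progesterone and in the knockout response, and 1 of 3 tested squamous markers, Trp63, rose in the floxed response. Summed adipose markers (8 genes) ranged from 2.44 to 1287 RPKM, and 0 of them were called by limma or had an unadjusted p below 0.05 in any contrast. The part of these cell types in the members' differences was not tested.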

How the data were processed

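Whole uterus RNA was sequenced in 24 libraries. Per the submitters' processing notes, the authors used cutadapt 2.7, TopHat, Partek and the mm10 build. How reads were counted, on which annotation and strand, and which tool corrected for batch is not stated in labels or headers. Deposited by the authors was a single table of batch-corrected RPKM, treated here as a score because 6.66% of values lie below 0 (none in the members). In 13688 of 13688 genes above 1 RPKM vehicle means did not differ between the batches (relative tolerance 0.0001). The design had assumed plain RPKM, and the test stayed the same.

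Values below 0 were set to 0, log2(RPKM + 0.5) was taken, and a gene was kept if 4 or more libraries had 1 RPKM or more (14284 genes). Fold changes are on this scale, which understates changes of low genes. A model with group and batch terms was fitted to all 24 libraries in limma 3.58.1 (R 4.3.3; empirical Bayes with trend and robust settings, 19 residual degrees of freedom). Since batch means had been taken off before deposit, residual degrees of freedom may be slightly overstated. All tests were two-sided, and p-values were adjusted by Benjamini-Hochberg over those genes, with a threshold of 0.05. Every adjusted p is from limma unless an exact permutation test is named.

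The members and the gene lists were chosen with earlier results of these data known. Genes were named from the members, up to 4 called genes per related list and contrast by smallest adjusted p, the 2 nearest tested genes on each side within 500 kb, and the 3 genes most like each member (of these, all 3 are printed for Lum and the first for the others). GENCODE M21 positions matched 21843 gene symbols, and promoters came from RefSeq (GRCm38.p6). Protein sequences were not used here. Alternatives covered the pseudocount, filter, batches, scaling, library weights, the replicate block, the libraries fitted and leaving out each library.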

Additional observations from a re-analysis of the deposited data

Results flagged for a closer look

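Dixon's test was applied to each member in each group, and a library stood apart in 4 of 36 groups; chance flags about 1 in 20 groups. Lum was at 130.6 RPKM in knockout vehicle 9, where the other 7 libraries of that group lay between 45.3 and 82.3 RPKM. Lum was at 41.4 RPKM and Fmod at 9.65 RPKM in knockout progesterone 8, where the other 3 libraries lay at 10.1 to 15.2 RPKM for Lum and 6.34 to 6.64 RPKM for Fmod. Krt5 was at 50.5 RPKM in knockout vehicle 9 and 14.8 RPKM in knockout progesterone 8, and its part in these values was not tested. Prelp was at 53.97 RPKM in floxed progesterone 1, against 30.9 to 34.2 RPKM in the other 3 libraries.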

How the results depend on the processing

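Over 1488 alternative values for single members no called change reversed, 32 fell below the threshold and 36 passed it anew. The cause of these shifts was not tested, beyond the smaller number of libraries where some were left out. Counts of members called follow, with the value as reported first.

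Between genotypes after vehicle the count of 1 became 0 without the filter on low values, 0 in the vehicle-only batch, 0 on differences in RPKM and 5 with weights per library, and 0 to 2 on leaving out 1 library. Between genotypes after progesterone the count of 3 became 4 after quantile normalization and 5 with weights, and 3 to 4 on leaving out 1 library. For the floxed response the count of 2 became 1 in the mixed batch, 1 after quantile normalization, 1 without the marker libraries and 1 when only the groups compared were fitted, and 1 to 2 on leaving out 1 library. For the knockout response the count of 2 became 1 in the mixed batch, 1 on differences in RPKM, 1 without the marker libraries, 1 with only the groups compared and 5 with weights, and 1 to 3 on leaving out 1 library. For the difference in response the count of 0 became 1 without the batch term, 1 after median rescaling and 6 with weights, and 0 to 2 on leaving out 1 library. The estimation of library weights did not reach its convergence tolerance.

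Some groups share replicate numbers. Of 11 same-numbered pairs across groups 6 had a correlation of deviations above 0.1 (from -0.342 to 0.544). Their median was 0.127, against 0.0133 for other pairs across groups. Same-numbered libraries within a group were not compared. The labels do not say whether the numbers pair libraries. With the number as a replicate block the counts of members called were 0 and 1 between genotypes after vehicle and progesterone, and 1 and 1 for the floxed and knockout responses. The calls kept under it were Fmod after progesterone and Lum in both responses. Between genotypes after progesterone Bgn (-0.80, adjusted p = 0.0753) and Vcan (-1.04, adjusted p = 0.260) lost their calls. Over all genes the block gave 1392 higher and 1043 lower between genotypes after vehicle and 478 higher and 344 lower between genotypes after progesterone (1758 and 1009 as reported), 66 and 96 in the knockout response (572 and 666) and 9 and 17 for the difference in response (208 and 147). The differences in response of Adamts1, Adamts9, Adamts14 and Adamts15 were not called with the block.

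Other counts over all genes, in total or in a direction, moved as well. Weights gave 3324 higher and 3176 lower between genotypes after vehicle (1878 and 1638 as reported), 3813 and 3310 after progesterone, 2217 and 4059 in the floxed response (1120 and 2160), 2184 and 3781 in the knockout response and 2381 and 1741 for the difference. Without the marker libraries the floxed response held 578 and 1380, the knockout response 168 and 169 and the difference 75 and 51. Between genotypes after progesterone 1254 and 609 were left without those libraries. The vehicle comparison held 1201 and 1210 within the mixed batch, 1169 and 1124 with a filter at 5 RPKM and 659 and 426 within the batch of vehicle libraries alone. A filter at 5 RPKM left 137 and 99 for the difference. The knockout response held 818 and 1091 without the batch term and 344 and 308 with only the groups compared. The difference held 102 and 102 without knockout progesterone 5, 116 and 121 without floxed progesterone 2, 211 and 95 without floxed progesterone 7, 140 and 96 without floxed progesterone 9 and 453 and 262 without floxed vehicle 12.

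The share of called genes that were higher moved from 63.5% to 52.7% after quantile normalization and 52.5% after median rescaling between genotypes after progesterone. In the floxed response it moved from 34.1% to 46.5% and 49.3%, and for the difference in response from 58.6% to 47.6% after median rescaling and 48.2% on differences in RPKM. Of 124 changes named for related genes none reversed, and 52 were kept under every alternative. Omd stayed near 1 RPKM or below, where the log2(RPKM + 0.5) scale understates changes.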
